A study of Mus musculus with 48 samples.

Results

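The genes described here encode the nuclear parts of the oxidative phosphorylation machinery of the mouse. They were chosen by symbol alone: every symbol that starts with Nduf, Uqcr or Atp5, the 4 genes Sdha to Sdhd, and every symbol that starts with Cox4 to Cox8, with pseudogene symbols that contain -ps left out. Of the 48321 gene symbols in the deposited expression table, 92 met this rule and 90 reached a level of at least 1 TPM in at least 3 of the 9 libraries. TPM is a transcript level corrected for gene length and scaled to the same total in every library, so that levels can be compared between genes. The 90 genes are 45 of complex I, 4 of complex II, 8 of complex III, 16 of complex IV and 17 of complex V, out of 16179 genes that passed the same minimum. The other two, Cox6a2 and Cox8b, are complex IV isoforms of heart and skeletal muscle, at most 0.14 and 1.31 TPM in any library.

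Oxidative phosphorylation couples the oxidation of NADH and succinate to the synthesis of ATP in the inner mitochondrial membrane. Complex I (NADH dehydrogenase) and complex II (succinate dehydrogenase) pass electrons to coenzyme Q, complex III passes them on to cytochrome c, and complex IV (cytochrome c oxidase) passes them to oxygen. Complexes I, III and IV pump protons, and the returning protons turn the rotor of complex V, the ATP synthase. Most subunits are encoded in the nucleus and a small set in the mitochondrial genome. Embryonic stem cells in the naive state use respiration together with glycolysis, and respiration is known to be reduced on passage to the primed state.

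The study compared mouse R1 embryonic stem cells, a male line of strain 129SV, in 3 genotypes: wild-type (WT), Mll3/4 dKO, in which both Mll3 and Mll4 are knocked out, and Mll3/4 dCD, in which both are catalytically deficient. Mll3 and Mll4 are methyltransferases that place H3K4me1, a mark of enhancers, and the study asked which of their functions depend on that activity. All cells were grown without serum in 2i medium with LIF, that is with inhibitors of MEK and GSK3, and each genotype has 3 libraries of polyadenylated RNA, which are the 9 libraries used here out of 48 samples. The labels do not say how many clones a genotype has, so a difference between genotypes and a difference between clones cannot be told apart. Whether the 3 libraries of a genotype are separate cultures is not stated, and each p-value is read against the spread of those libraries alone, which may be technical. In bulk RNA, fewer cells that express a gene and less of its RNA per cell cannot be told apart.

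The libraries held between 21090624 and 56249770 reads, as recovered from the TPM steps, and the 90 genes together held 265018 to 719817 of them. Kmt2c, the gene of Mll3, stood at 19.7 to 21.9 TPM in WT, 7.44 to 8.0 in dKO and 25.3 to 28.6 in dCD. Kmt2d, the gene of Mll4, stood at 65.2 to 67.4 TPM in WT, 80.5 to 84.8 in dKO and 54.6 to 67.8 in dCD. Which part of each gene was altered is not given in the labels, so the level of the whole gene checks the dKO label for Kmt2c only. The 6 markers of naive stem cells summed to 6696 to 6751 TPM in WT, 5016 to 5047 in dKO and 4827 to 4931 in dCD. None was under 1 TPM in every library of a line. The 12 fibroblast markers summed to 658 to 700 TPM in WT, 521 to 569 in dKO and 620 to 671 in dCD. Nearly all of that sum was Fn1, with 9, 7 and 6 of the 12 under 1 TPM in every library of WT, dKO and dCD. Fap was at 0 in WT and Lum in dCD, while Col1a1 averaged 0.47 TPM in WT, 10.2 in dKO and 7.57 in dCD. Primitive endoderm markers summed to 7.49 to 9.32 TPM in WT, 15.1 to 15.5 in dKO and 13.5 to 15.6 in dCD. The part of these marker levels in the results that follow was not tested.

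The 90 genes were highly expressed and differed over almost 3 orders of magnitude. Their median level over the 9 libraries was 196 TPM, against 14.2 TPM for all tested genes. Together they made up 2.42% of all TPM in WT, 2.51% in dKO and 2.48% in dCD. The highest were Cox8a, a small subunit of complex IV, at 1905 ± 59.0 TPM in WT (SD, n = 3), and Atp5b, the catalytic beta subunit of the ATP synthase, at 1785 ± 11.6 TPM. In the other complexes the highest were Uqcr10 of complex III (705 ± 14.5 TPM in WT), Ndufa6 of complex I (522 ± 14.1 TPM) and Sdhd of complex II (281 ± 1.29 TPM). At the low end stood Cox4i2, Cox7b2 and Cox8c, complex IV isoforms that are best known from lung, testis and other differentiated tissues, each under 7 TPM in every library. Ndufb2, an accessory subunit of complex I, was also low for a subunit that every complex I holds, at 3.65 ± 0.253 TPM in WT. The length given for it is 5628 bases, against a median of 1490 for the 90 genes, and TPM divides by this length. It held 121 to 326 reads per library. Many of these genes have near-identical processed pseudogenes, and how reads with several matches were counted is not given in the sources used here, so levels of such genes are uncertain. The 6 pseudogene symbols left out, of Atp5k, Atp5l and Uqcrh, were at 1.94 TPM or less in every library. Transcripts of the 13 subunits encoded in the mitochondrial genome reached at most 0.77 TPM in any library of the deposited table, so nothing is said of them here.

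**Figure D1:**
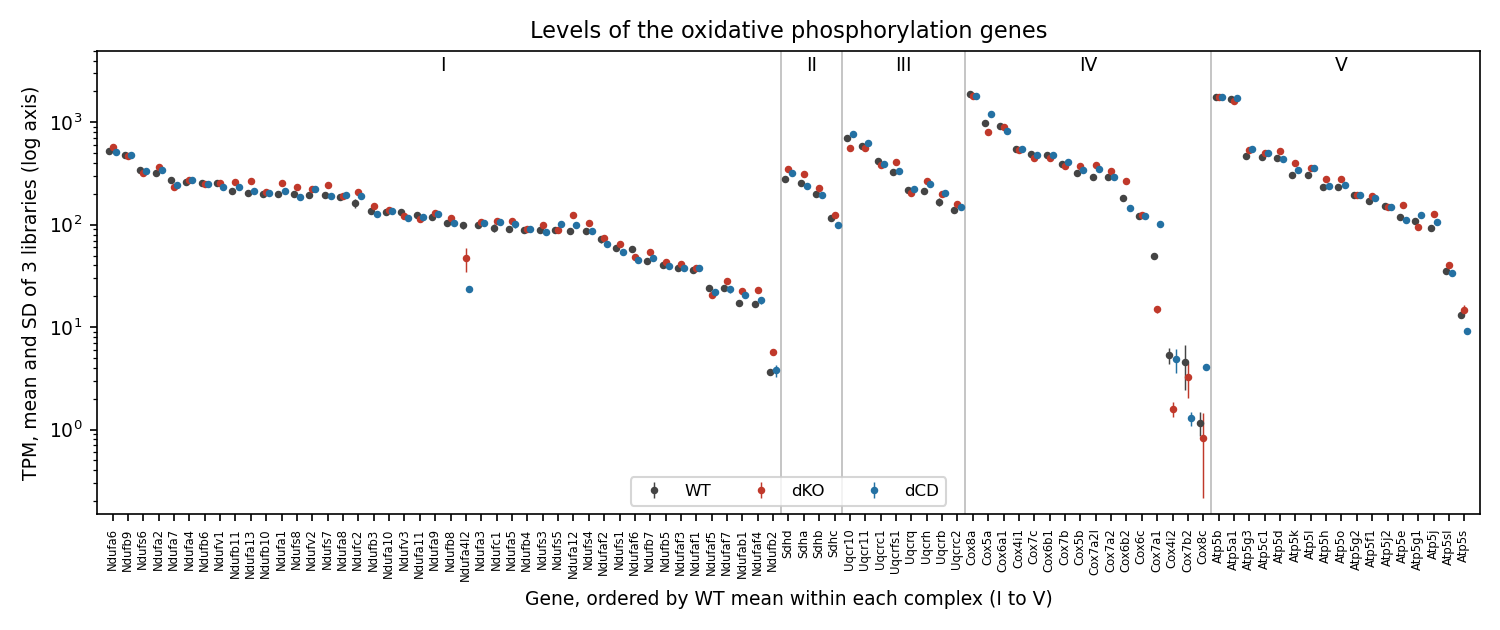
Level of 89 of the 90 genes in TPM (vertical log axis), with WT, dKO and dCD side by side as the mean and SD of 3 libraries, ordered within complexes I to V by the WT mean. Most genes sit at nearly the same level in the 3 lines, and the wide gaps between lines are at Ndufa4l2, Cox7a1, Cox4i2, Cox7b2 and Cox8c.

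In dKO, most genes of complexes I, II and V were slightly higher than in WT on the deposited scale, while complex IV had more lower than higher genes. Of the 90 genes, 50 were higher and 17 lower at an adjusted p under 0.05 (limma, adjusted over all 16179 genes), and 23 did not pass. The same test called 43.4% of all tested genes higher in dKO and 28.4% lower. The median log2 fold change was 0.14 for the 90 genes and 0.10 for all tested genes, on the log2(TPM + 1) scale that is used for every fold change here. That shift of the whole table matters for changes this small: scaling each library by its median ratio to the others moved the median of all genes in dKO against WT down by about 0.1. Under that scaling 30 of the 90 genes were higher and 32 lower in dKO, where all genes split 34.8% to 34.9%. All 17 lower calls were kept under that scaling, and 30 of the 50 higher calls. The size of the changes was small throughout, and 3 genes changed at least 2-fold, all of them lower in dKO, while 7.89% of all genes were lower and 6.01% higher by that much.

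In dCD, fewer of the genes passed and the 2 directions were closer in number. Of the 90, 30 were higher and 17 lower than in WT (limma), against 28.9% and 29.5% of all tested genes. The median log2 fold change was 0.02 for the 90 genes and -0.01 for all genes, and the median-ratio scaling left 26 higher and 16 lower. At least 2-fold changes were found for Cox7a1 and Cox8c, both higher, and for Ndufa4l2 and Cox7b2, both lower, where 4.62% of all genes were at least 2-fold higher and 2.32% at least 2-fold lower.

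The direct comparison of the 2 mutant lines gave 44 genes higher and 13 lower in dKO than in dCD (limma), against 42.3% and 27% of all tested genes. Under the median-ratio scaling these numbers were 28 and 34. Cox4i2, Cox7a1 and Cox8c were at least 2-fold lower in dKO than in dCD, as were 7.36% of all genes, and none of the 90 was 2-fold higher, against 3.6% of all genes. In the test for any difference among the 3 lines (moderated F of the same limma fit), 75 of the 90 genes passed, where 82.6% of all tested genes did. Libraries without overlap were common too. Of 16179 tested genes, all dKO libraries lay above all WT libraries for 7286 and below them for 4757. In dCD against WT these counts were 5053 and 5223, and in dKO against dCD 7236 and 4590. Among the 90 genes they were 50 and 18, 28 and 16, and 47 and 15.

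**Figure D2:**
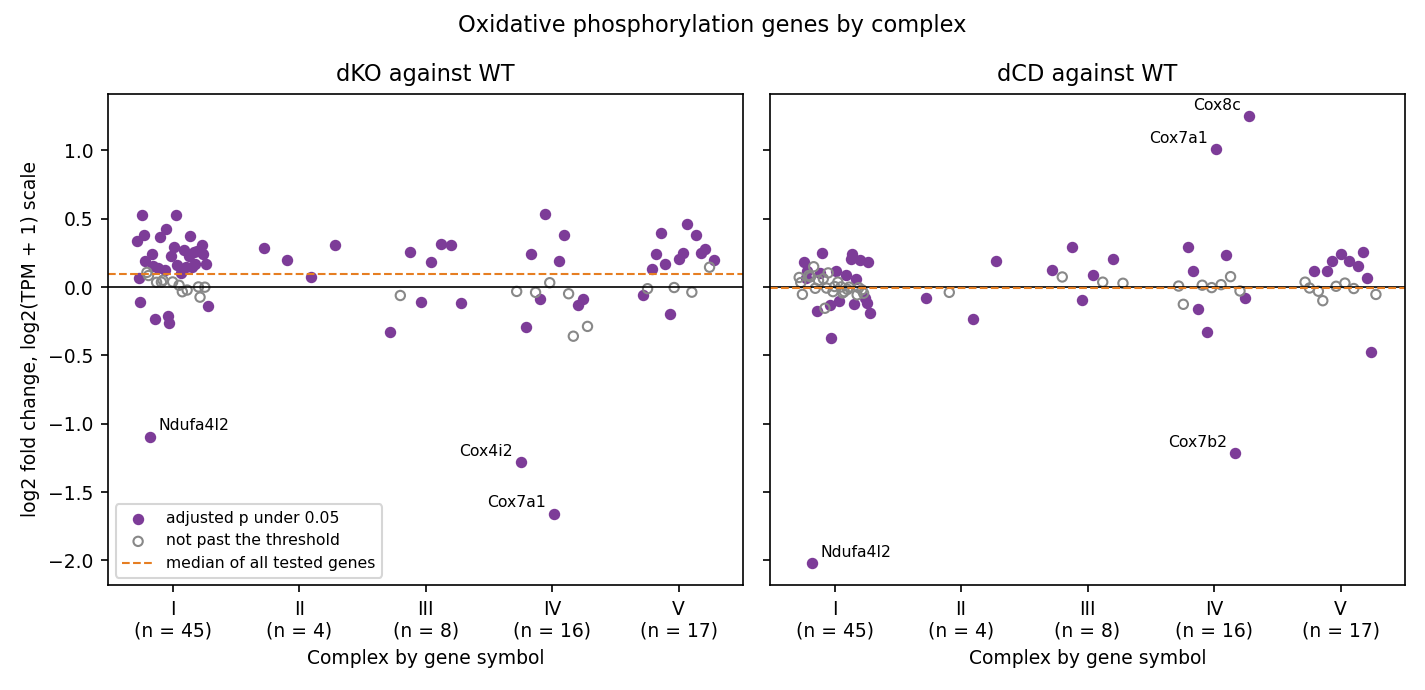
Log2 fold change of each gene on the log2(TPM + 1) scale in dKO against WT (left) and dCD against WT (right), by complex, with filled points at an adjusted p under 0.05. Most genes lie within 0.5 of 0. The points beyond 1 are complex IV genes or Ndufa4l2, and Ndufa12, Ndufb2 and Cox6b2 lie at 0.53 to 0.54 in dKO; the dashed line is the median of all tested genes, 0.10 in dKO and -0.01 in dCD, and directions of the small dKO changes above 0 depend on the scaling.

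The summed level of each complex put the small changes together. In dKO the summed TPM of complex II was 118.7% of the WT mean, with the 3 libraries between 117.6% and 120.2%, and it stayed above WT at 110.5% under the median-ratio scaling. The sum of complex I was 108.1% of WT in dKO and 100.6% under that scaling. The sum of complex V was 106.5% of WT in dKO but 99.1% under that scaling, so its direction depends on the scaling. Complex III and complex IV were at 98.8% and 97.4% of WT in dKO, and at 92.0% and 90.7% after scaling. In dCD the sums were 100.1% for complex I, 100.3% for complex II, 105.8% for complex III, 102.0% for complex IV and 104.2% for complex V. On the deposited scale the dKO libraries stood above all WT libraries for complexes I, II and V and below them for complex IV, and those of complex III overlapped. These sums are a description and carry no test, and the few genes with the highest TPM weigh most in them.

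**Figure D3:**
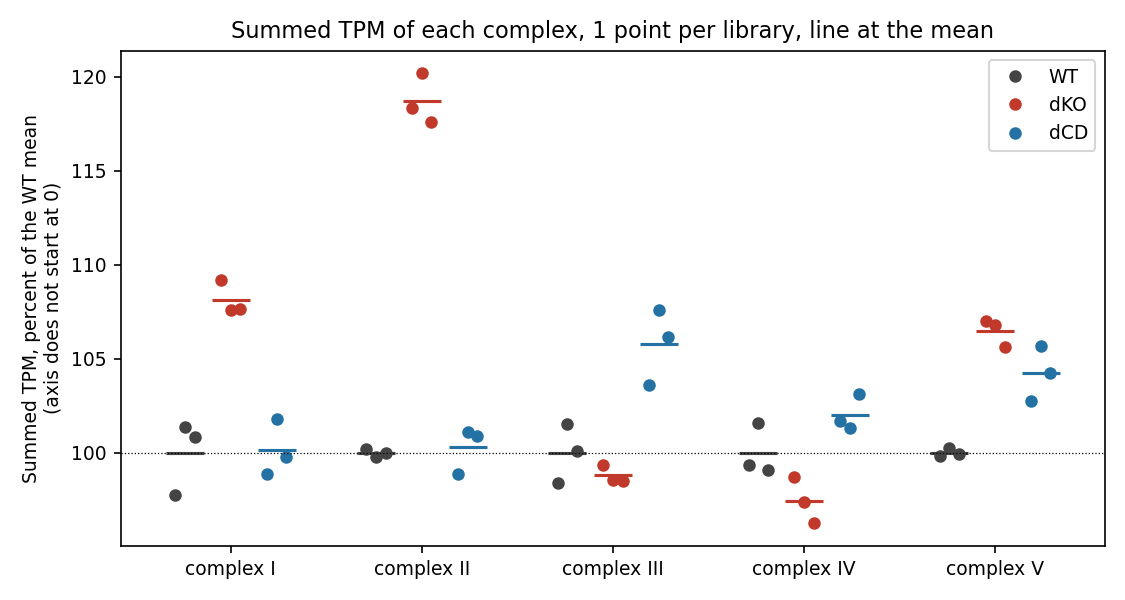
Summed TPM of the genes of each complex as a percentage of the WT mean (vertical axis, which does not start at 0), 1 point per library and a line at the mean of 3. The dKO points of complex II stand at 117.6% to 120.2%, clear of WT and dCD; those of complexes I and V stand above WT on this deposited scale, but at a mean of 100.6% and 99.1% of WT after median-ratio scaling.

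Complex I takes electrons from NADH through a chain of iron-sulfur clusters, and its 7 nuclear core subunits are conserved from bacteria. Of these 7, 6 were higher in dKO than in WT and none lower (limma), with a median log2 fold change of 0.17. Among all tested genes 43.4% were higher and 28.4% lower, with a median of 0.10. After median-ratio scaling these shares were 34.8% and 34.9%, and several of the core calls were lost. Ndufs7, which carries the last iron-sulfur cluster before coenzyme Q, was at 199, 201 and 186 TPM in WT, 250, 231 and 244 in dKO and 184, 192 and 192 in dCD. All 3 dKO libraries stood above all libraries of the other lines. Its log2 fold change in dKO against WT was 0.31 ± 0.04 (SE; adjusted p = 3.01e-05, limma), and against dCD it was 0.35 ± 0.04 (adjusted p = 1.24e-05, limma). Ndufs8 (0.24) likewise rose in dKO, and Ndufs7 and Ndufs8 kept their calls under the median-ratio scaling, at 0.20 and 0.14. The calls of Ndufs1, Ndufs3 and Ndufv2 in dKO, at 0.15 to 0.17, were lost under it. Ndufv1, which binds NADH and FMN, did not pass in dKO, with a log2 fold change of -0.00 and an adjusted p of 0.986 (limma). After scaling it was called lower in dKO, at -0.10 (adjusted p = 0.005, limma).

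In dCD the core subunits went both ways. Ndufv2 was higher than in WT (log2 fold change 0.18, adjusted p = 0.000765, limma). Ndufs1, the largest core subunit, was at 58.7, 59.2 and 58.7 TPM in WT, 63.6, 66.1 and 66.2 in dKO and 55.5, 54.7 and 51.9 in dCD. Its libraries fell into 3 groups without overlap, highest in dKO and lowest in dCD, with a log2 fold change of -0.12 in dCD against WT (adjusted p = 0.00619, limma). Ndufv1 and Ndufs8 were also lower in dCD, by log2 values of -0.12 and -0.08. The call of Ndufs8 in dCD was lost without WT replicate 2 or dCD replicate 1, with an adjusted p of up to 0.0735 (limma).

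Over all 45 genes of complex I, 27 were higher and 6 lower in dKO (limma), and 13 and 13 after median-ratio scaling, where the shares of all tested genes were 43.4% and 28.4%, and 34.8% and 34.9% after scaling. The 29 accessory subunits surround the core. In dKO, 18 were higher, 3 lower and 8 not past the threshold (limma). In dCD 10 were higher and 3 lower, against 28.9% and 29.5% of all tested genes. Ndufa12, which belongs to the matrix arm, was at 79.5, 89.3 and 91.6 TPM in WT, 132, 123 and 123 in dKO and 96.9, 102 and 96.8 in dCD. The lines did not overlap, with dKO highest and dCD between. The log2 fold change was 0.53 ± 0.05 (SE) in dKO (adjusted p = 5.78e-06, limma) and 0.19 in dCD (adjusted p = 0.0111, limma). The low subunit Ndufb2 rose by the same 0.53 in dKO, from 3.38 to 3.88 TPM over the WT libraries to 5.49 to 5.92, and was at 3.41 to 4.38 TPM in dCD. Ndufa13, also known as GRIM-19, was higher in dKO by 0.38 (adjusted p = 1.85e-07, limma), and it was higher in dCD by 0.06. The latter call was kept only without WT replicate 3 or dCD replicate 1, and the adjusted p was up to 0.151 without another library (limma). The dKO calls of Ndufa12, Ndufb2 and Ndufa13 were kept after median-ratio scaling.

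Ndufab1, the mitochondrial acyl carrier protein, which serves fatty acid and lipoic acid synthesis as well as complex I, was the complex I gene with the largest rise in dCD. Its levels were 16.7, 17.2 and 18.0 TPM in WT, 21.8, 22.7 and 23.2 in dKO and 21.1, 21.2 and 19.8 in dCD. Both mutant lines stood above WT in every library, by log2 values of 0.37 ± 0.04 in dKO and 0.25 ± 0.04 in dCD (adjusted p = 2.21e-05 and 0.000643, limma). Ndufs5 moved in dCD only against WT, by 0.20 (adjusted p = 0.000315, limma), and the 2 mutant lines differed in it by -0.20 (adjusted p = 0.000233, limma). Its dKO level did not pass against WT at 0.00, a value that became -0.10 under the median-ratio scaling. The 3 accessory subunits that fell in dKO were Ndufa7 (-0.23), Ndufv3 (-0.14) and Ndufa11 (-0.11). Ndufa7 and Ndufv3 also fell in dCD, with log2 fold changes of -0.17 and -0.19.

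The 7 tested Ndufaf genes encode chaperones that build complex I and leave it when it is complete. In dKO Ndufaf4 (0.42), Ndufaf7 (0.23) and Ndufaf3 (0.13) were higher and Ndufaf6 (-0.26) and Ndufaf5 (-0.21) lower (limma). In dCD none was higher, and Ndufaf5 and Ndufaf6 were lower by -0.13 and -0.37. Ndufaf6 stood at 53.9, 60.1 and 61.7 TPM in WT, 46.9, 46.8 and 52.5 in dKO and 45.9, 45.8 and 43.3 in dCD. Both mutant lines lay below all WT libraries for this gene, and they did not differ from each other past the threshold (log2 difference 0.11, adjusted p = 0.114, limma). The fall of Ndufaf5 in dCD was lost without any 1 WT library, dKO replicate 2 or dCD replicate 2 (adjusted p up to 0.128, limma). The rise of Ndufaf3 in dKO was lost without WT replicate 3 or dKO replicate 3 (adjusted p up to 0.0634, limma) and under median-ratio scaling, where Ndufaf7 was lost too.

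Complex II is the succinate dehydrogenase of the citric acid cycle and the only complex with no subunit from the mitochondrial genome. On the deposited scale all 4 Sdh genes were higher in dKO than in WT and than in dCD (limma). Of all tested genes, 43.4% and 42.3% were higher in these comparisons, and 34.8% and 32.7% after median-ratio scaling. After median-ratio scaling 2 of the 4 passed against WT, Sdha and Sdhd, and 3 against dCD, where Sdhd went from 0.12 to 0.01 (adjusted p = 0.647, limma). Sdha, the flavoprotein that oxidises succinate, stood at 260, 250.5 and 255 TPM in WT, 308, 318 and 310 in dKO and 241, 241 and 242 in dCD. The 3 lines did not overlap, and Sdha was higher in dKO by 0.29 ± 0.02 (SE; adjusted p = 6.49e-07, limma) and lower in dCD by -0.08 (adjusted p = 0.00835, limma). Sdhb, its iron-sulfur partner, was higher in dKO by 0.20, a call lost under the median-ratio scaling at 0.10, and did not pass in dCD at -0.04.

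The membrane anchors of complex II, Sdhc and Sdhd, hold heme and the coenzyme Q site, and they moved apart in dCD. Sdhd was at 281, 281 and 279 TPM in WT, 353, 347 and 343 in dKO and 316, 328 and 315 in dCD. Its rise was 0.31 ± 0.02 in dKO and 0.19 ± 0.02 in dCD (adjusted p = 4.22e-07 and 3.38e-05, limma). Sdhc was at 121, 117 and 114 TPM in WT, 123, 127 and 122 in dKO and 98.7 to 101 in dCD. Every dCD library lay below every WT library, with a log2 fold change of -0.23 ± 0.03 (adjusted p = 4.36e-05, limma). The 0.07 of Sdhc in dKO against WT became -0.03 under the median-ratio scaling. Its call was also lost without WT replicate 2 or 3 or dKO replicate 1 or 2 (adjusted p up to 0.126, limma), so no direction can be given for it.

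Complex III moves electrons from coenzyme Q to cytochrome c. Of its 8 nuclear genes named Uqcr, 4 were higher and 3 lower in dKO, and 4 higher and 1 lower in dCD (limma). The shares of all tested genes were 43.4% and 28.4% in dKO and 28.9% and 29.5% in dCD. Uqcrfs1, the Rieske iron-sulfur protein, was at 323, 324 and 343 TPM in WT, 407, 410 and 413 in dKO and 335, 345 and 335 in dCD. The dKO libraries stood above both other lines, by 0.31 ± 0.03 against WT (adjusted p = 1.4e-06, limma), while WT and dCD overlapped and did not differ past the threshold (0.04, adjusted p = 0.251, limma). Uqcr10, a small accessory subunit and the gene with the highest level in this complex, went the other way. It was at 692, 721 and 703 TPM in WT, 572, 554 and 555 in dKO and 747, 783 and 775 in dCD. The 3 lines did not overlap, and Uqcr10 fell by 0.33 ± 0.02 in dKO and rose in dCD by 0.12 ± 0.02 (adjusted p = 7.27e-07 and 0.00168, limma).

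Uqcrb, which lies at the coenzyme Q site, was the complex III gene with the largest rise in dCD. It stood at 156, 162 and 184 TPM in WT, 193, 202 and 205 in dKO and 211, 214 and 191 in dCD. Both mutant lines lay above WT, by 0.26 ± 0.06 in dKO and 0.30 ± 0.06 in dCD (adjusted p = 0.00303 and 0.0019, limma). Of the 2 core proteins, which resemble mitochondrial processing peptidases, Uqcrc1 fell in both lines, with log2 fold changes of -0.11 in dKO and -0.10 in dCD. Uqcrc2 rose by 0.18 in dKO (limma), and by 0.09 in dCD. The latter call was lost without WT replicate 2 or 3 or dCD replicate 1 or 2 (adjusted p up to 0.0988, limma).

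Complex IV reduces oxygen to water, and several of its nuclear subunits exist as a broadly expressed form and a form restricted to certain tissues. Of its 16 genes, 4 were higher and 6 lower in dKO (limma), and 3 higher and 10 lower after median-ratio scaling. The shares of all tested genes were 43.4% and 28.4%, and 34.8% and 34.9% after scaling. In dCD 5 were higher and 4 lower, against 28.9% and 29.5% of all tested genes. Among the 10 broadly expressed subunits, Cox5a changed most. Cox5a, which is a subunit on the matrix side, was at 952, 981 and 1011 TPM in WT, 799, 780 and 822 in dKO and 1166, 1195 and 1245 in dCD. It fell by 0.29 ± 0.03 in dKO and rose in dCD by 0.29 ± 0.03 (adjusted p = 1.08e-05 and 2.04e-05, limma), and no libraries overlapped between the lines. Cox5b, which binds zinc, rose in both lines, by 0.24 in dKO and 0.12 in dCD.

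Cox7a2l is related to the Cox7a subunits and links complexes III and IV into a supercomplex. It rose in dKO by 0.38 ± 0.02 and in dCD by 0.24 ± 0.02 (adjusted p = 1.49e-07 and 1.17e-05, limma), from 292, 300 and 294 TPM in WT to 377, 393 and 387 in dKO and 351, 354 and 340 in dCD. The lines did not overlap. The other broadly expressed subunits moved little on the deposited scale. Cox7c (-0.13), Cox8a (-0.09) and Cox6b1 (-0.09) were lower in dKO and Cox6a1 (-0.16) lower in dCD. Cox8a was also lower in dCD by -0.08, a call lost without WT replicate 1 or 2, dKO replicate 2 or dCD replicate 1 or 2 (adjusted p up to 0.142, limma). In dKO its call was lost without WT replicate 2 or dKO replicate 3 (adjusted p up to 0.0729, limma). With 1 library left out, the dKO call of Cox6b1 was kept only without dKO replicate 1 or 2 (adjusted p up to 0.139 otherwise, limma). Under median-ratio scaling Cox6b1 and Cox8a were both lower in dKO at -0.19 (adjusted p = 0.00133 and 0.000345, limma), and Cox7c at -0.23. Cox6a1 (-0.14), Cox4i1 (-0.135), Cox7b (-0.15) and Cox6c (-0.07) were also called lower in dKO there. Cox5b stayed higher there at 0.14, and Cox7a2 did not pass.

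The widest differences between the lines were in the restricted isoforms, and first in Cox7a1, the form of the Cox7a subunit best known from heart, skeletal muscle and brown fat. Cox7a1 stood at 50.2, 50.3 and 47.9 TPM in WT, 14.7, 14.0 and 16.4 in dKO and 95.8, 102 and 104 in dCD. The 3 lines lay far apart, with dKO lowest and dCD highest in every library. Its log2 fold change was -1.66 ± 0.05 (SE) in dKO against WT, 1.01 ± 0.05 in dCD against WT and -2.67 ± 0.05 between dKO and dCD (adjusted p = 1.23e-09, 1.17e-07 and 5.57e-11, limma). Leaving out any 1 library kept it between -1.72 and -1.61 in dKO and between 0.98 and 1.04 in dCD. Its broad partner Cox7a2 was at 292 ± 18.4 TPM in WT and 295 ± 7.52 in dCD, and at 334 ± 6.65 in dKO, a rise of 0.19 that was lost under median-ratio scaling.

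Cox6b2, the form of the Cox6b subunit best known from testis, was well expressed in these cells and showed the reverse order of the lines. It was at 190, 181 and 178 TPM in WT, 268, 263 and 266 in dKO and 143, 140.5 and 152 in dCD. No libraries overlapped between lines, and dKO was highest and dCD lowest. The log2 fold change was 0.54 ± 0.03 in dKO, -0.33 ± 0.03 in dCD and 0.87 ± 0.03 between dKO and dCD (adjusted p = 2.01e-07, 1.55e-05 and 6.51e-09, limma). In WT its level was below that of the broad form Cox6b1, at 478 ± 7.47 TPM. Cox6b1 was at 450 ± 26.4 TPM in dKO and 483 ± 3.95 in dCD, so its small difference in dKO was of opposite sign.

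Ndufa4l2 carries a complex I name, but its close relative Ndufa4 is now placed in complex IV, and Ndufa4l2 is best known as a gene induced by low oxygen. It stood at 103, 90.2 and 104 TPM in WT, 54.8, 33.1 and 53.0 in dKO and 23.8, 23.0 and 24.2 in dCD. Every dKO library lay below every WT library, and dCD was the lowest line. The log2 fold change was -1.09 ± 0.16 in dKO and -2.02 ± 0.16 in dCD (adjusted p = 9.35e-05 and 1.8e-06, limma), and dKO stood above dCD by 0.92 ± 0.16 (adjusted p = 0.000358, limma). The second dKO library was well below the other two. Leaving out 1 library at a time gave -1.22 to -0.87 in dKO. Ndufa4 itself was at 259 ± 11.3, 275 ± 7.78 and 273 ± 9.07 TPM in WT, dKO and dCD and did not pass in either line against WT (0.08 in both).

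Cox4i2, Cox8c and Cox7b2 were low and rest on few reads, between 1 and 85 per library. Cox4i2, the form of the Cox4 subunit best known from lung, was at 6.36, 4.43 and 5.18 TPM in WT, 1.48, 1.41 and 1.90 in dKO and 3.98, 4.19 and 6.36 in dCD. The dKO libraries lay below all the others (log2 fold change -1.28 ± 0.16 against WT, adjusted p = 3.95e-05, limma), and WT and dCD overlapped. Cox8c, best known from testis, was at 0.81, 1.36 and 1.32 TPM in WT, 0.27, 1.49 and 0.73 in dKO and 4.26, 3.90 and 4.21 in dCD. It rose in dCD by 1.25 ± 0.21 (adjusted p = 0.000514, limma), clear of both other lines, which overlapped. Cox7b2, also best known from testis, was at 3.08, 3.59 and 6.96 TPM in WT, 4.53, 2.05 and 3.19 in dKO and 1.53, 1.14 and 1.20 in dCD. It fell by 1.22 ± 0.26 in dCD (adjusted p = 0.00238, limma), and its difference between dKO and dCD was lost without dKO replicate 1, at an adjusted p of 0.0534 (limma). On this scale, which adds 1 to each TPM, the changes of these 3 genes are understated.

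**Figure D4:**
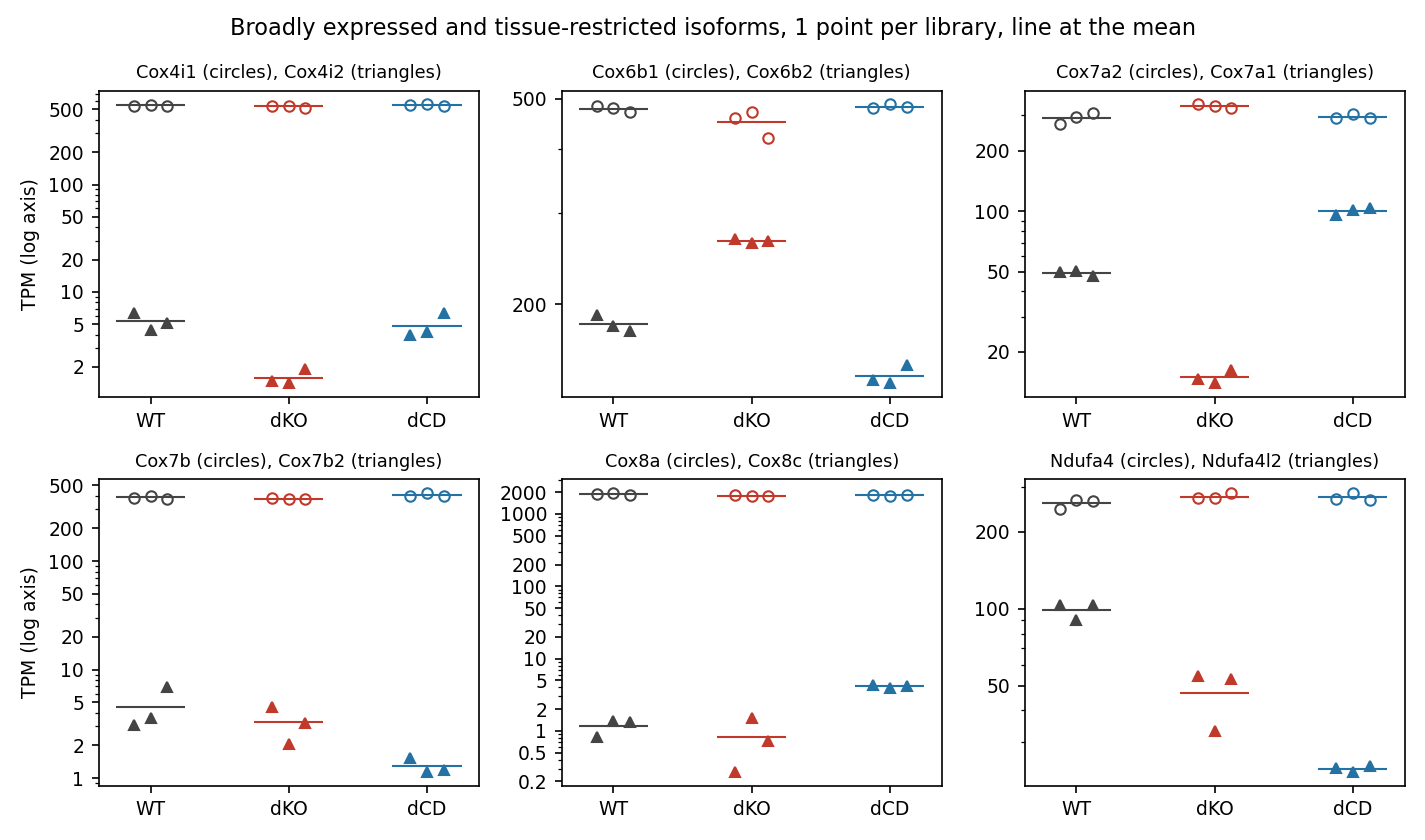
TPM (vertical log axis, with its own range in each panel) of 6 broadly expressed subunits (circles) and their restricted isoforms (triangles) in WT, dKO and dCD, 1 point per library and a line at the mean. The circles stay nearly level, while Cox7a1 is lowest in dKO and highest in dCD, Cox6b2 runs in the opposite order, Ndufa4l2 falls in both lines and Cox8c stands apart in dCD.

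The genes of 2 of these isoforms start in sequence poor in CG pairs, a trait that some broadly expressed subunits share. The 250 bases before the RefSeq start (GRCm38.p6) are shown 5′ to 3′ on the gene's strand, with each CG pair in capitals, for Cox7a1 and Cox6b2 and, as CG-rich examples among subunits that every cell uses, for Sdhd and Atp5o.
Cox7a1 (chr7:30183921-30184170, plus strand): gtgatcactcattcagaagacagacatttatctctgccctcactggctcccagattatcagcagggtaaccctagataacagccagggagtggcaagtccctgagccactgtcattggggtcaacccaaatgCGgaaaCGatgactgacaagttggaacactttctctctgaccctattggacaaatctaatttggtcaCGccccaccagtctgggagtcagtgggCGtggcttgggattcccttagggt
Cox6b2 (chr7:4753095-4753344, minus strand): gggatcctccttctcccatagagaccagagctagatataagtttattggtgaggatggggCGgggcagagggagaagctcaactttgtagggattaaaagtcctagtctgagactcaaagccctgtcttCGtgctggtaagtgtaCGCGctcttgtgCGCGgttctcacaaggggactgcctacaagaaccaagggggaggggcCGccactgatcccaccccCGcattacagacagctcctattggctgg
Sdhd (chr9:50603850-50604099, minus strand): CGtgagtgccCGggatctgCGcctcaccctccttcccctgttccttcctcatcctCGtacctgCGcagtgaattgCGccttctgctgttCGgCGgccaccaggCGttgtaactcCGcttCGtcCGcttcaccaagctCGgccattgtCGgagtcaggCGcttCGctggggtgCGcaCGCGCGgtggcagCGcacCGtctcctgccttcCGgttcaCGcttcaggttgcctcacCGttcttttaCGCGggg
Atp5o (chr16:91931631-91931880, minus strand): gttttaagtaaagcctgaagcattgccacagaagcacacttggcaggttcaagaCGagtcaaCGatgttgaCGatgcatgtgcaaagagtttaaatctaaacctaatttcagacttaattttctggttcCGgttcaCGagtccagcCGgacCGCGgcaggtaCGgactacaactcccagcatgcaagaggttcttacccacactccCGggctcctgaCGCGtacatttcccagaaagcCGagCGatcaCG
The window before Cox7a1 holds 4 CG pairs and that before Cox6b2 holds 8, against 27 for Sdhd and 15 for Atp5o. Over the full windows of 300 bases the observed over expected CG ratio was 0.33 for Cox7a1 and 0.43 for Cox6b2, 1.02 for Sdhd and 1.07 for Atp5o. The median was 0.83 over the 72 of the 90 genes that could be matched to the promoter table and 0.76 over 10540 tested genes. Of the other restricted isoforms, Cox7b2 was at 0.56, and Cox4i2, Cox8c and Ndufa4l2 had no matched window. Low ratios were also found for the broadly expressed Cox7b (0.37, below Cox6b2), Ndufc2 (0.48), Ndufb2 (0.52) and Ndufb7 (0.52), so a low ratio is not particular to the restricted isoforms. The 4 genes shown were chosen after their values were seen.

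Complex V has a catalytic F1 head, a ring of c subunits that turns, and a peripheral stalk that holds the head still. Of its 17 genes, 11 were higher and 2 lower in dKO and 8 higher and 1 lower in dCD (limma). The shares of all tested genes were 43.4% and 28.4% in dKO and 28.9% and 29.5% in dCD. After median-ratio scaling the dKO split was 8 to 5, against 34.8% and 34.9% of all tested genes. The 4 peripheral stalk genes all rose in dKO, with a median log2 fold change of 0.26, and 3 of them passed in dCD. Atp5j, the coupling factor 6 of the stalk, changed most, from 89.6, 93.2 and 95.0 TPM in WT to 128, 128 and 128 in dKO and 106, 109 and 102 in dCD. The 3 lines did not overlap, with rises of 0.46 ± 0.03 in dKO and 0.19 ± 0.03 in dCD (adjusted p = 1.95e-07 and 0.000253, limma). Atp5h (0.25) and Atp5o (0.28) rose in dKO also after scaling, while Atp5f1 (0.17) lost its call under it, and the call of Atp5o in dCD, at 0.06, was kept only without WT replicate 3, dKO replicate 3 or dCD replicate 1 (adjusted p up to 0.133 otherwise, limma).

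In the F1 head, the 2 large subunits stayed nearly level on the deposited scale and several small ones rose in dKO. Atp5b was at 1795, 1787 and 1772 TPM in WT, 1762, 1791 and 1758 in dKO and 1765, 1783 and 1782 in dCD, with all 3 lines overlapping and log2 differences of -0.01 against WT in both. Under median-ratio scaling Atp5b was lower in dKO, at -0.12 against WT and -0.11 against dCD (adjusted p = 0.000674 and 0.000987, limma). Atp5a1, the alpha subunit, was lower in dKO by -0.06 (adjusted p = 0.0139, limma), a call lost without WT replicate 1 (adjusted p = 0.0527, limma) and kept, at -0.16, under that scaling. Atp5e, the epsilon subunit of the central stalk, rose in dKO by 0.40 ± 0.05 (adjusted p = 1.84e-05, limma) and was at -0.10 in dCD, which did not pass. Atp5d, the delta subunit, rose by 0.24 in dKO (adjusted p = 1.28e-05, limma). Atp5c1, the gamma subunit that forms the shaft, rose by 0.13 in dKO and 0.12 in dCD. The first call was lost under the median-ratio scaling, and the second without WT replicate 1 or 2 or dCD replicate 2 (adjusted p up to 0.0776, limma).

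The c-ring is made of 1 protein that 3 genes encode, each with a different import signal, and the 3 genes behaved differently. Atp5g1 was at 110, 111 and 107 TPM in WT, 101, 94.8 and 90.7 in dKO and 123, 127 and 126 in dCD. It was lowest in dKO and highest in dCD without overlap, by -0.20 ± 0.04 and 0.19 ± 0.04 against WT (adjusted p = 0.000519 and 0.000894, limma). Atp5g3, the gene with the highest level of the 3, rose in both lines, by 0.20 in dKO and 0.24 in dCD (adjusted p = 4e-06 and 2.28e-06, limma), from 459 to 471 TPM in WT to 530 to 546 in dKO and 550 to 555 in dCD. Atp5g2 was at 195 ± 2.41, 194 ± 3.65 and 195 ± 2.89 TPM in WT, dKO and dCD and passed in neither comparison with WT, though under median-ratio scaling it was lower in dKO by -0.11.

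Among the membrane subunits of complex V, Atp5l was the complex V gene with the largest rise in dCD, at 283, 317 and 309 TPM in WT, 375, 353 and 350 in dKO and 355, 374 and 356 in dCD. It rose by 0.25 ± 0.04 in dKO and 0.26 ± 0.04 in dCD (adjusted p = 0.000464 and 0.00056, limma). Atp5k rose by 0.38 in dKO and 0.16 in dCD. Atp5s bears the name of the ATP synthase but is not a structural subunit. It was at 14.4, 12.5 and 13.0 TPM in WT, 15.5, 13.1 and 15.9 in dKO and 9.56, 8.69 and 9.52 in dCD, a fall of -0.48 ± 0.08 in dCD below all other libraries (adjusted p = 0.000422, limma).

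The 2 comparisons with WT share the WT libraries, so genes called in opposite directions are only listed here. Called higher in dKO and lower in dCD were 6 genes: Cox6b2, Ndufb3, Ndufs1, Ndufs8, Sdha and Sdhc, the last with no firm direction in dKO. The dKO calls of Ndufb3 and Ndufs1 were lost under the median-ratio scaling, and the dCD calls of Ndufb3 and Ndufs8 with the length trend removed. Called lower in dKO and higher in dCD were 4: Atp5g1, Cox5a, Cox7a1 and Uqcr10. Opposite calls against WT make a direct difference between dKO and dCD nearly certain. For these 4 the log2 differences were -0.39, -0.59, -2.67 and -0.45 (limma), with the same sign under the median-ratio scaling.

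The nearest tested genes on each side were looked up for the 5 genes with 2-fold changes, since a change could extend over more than 1 gene. Order is that of the GRCm38 annotation with genes that were not tested left out, so such genes may lie between those named. The nearest tested gene on 1 side of Cox7a1 was Capns1, a calpain subunit. It fell by 0.40 in dKO and was at -0.06 in dCD (adjusted p = 2.6e-08 and 0.0263, limma). On the other side Gm5113 did not pass in either line. Among tested genes Cox4i2 lies between Id1, an inhibitor of bHLH factors, and Bcl2l1, a survival factor. Id1 rose in dKO by 1.46 (adjusted p = 9.16e-09, limma), and Bcl2l1 fell by 0.46. The nearest tested genes of Ndufa4l2 were R3hdm2 (-0.10 in dKO and -0.21 in dCD) and Shmt2, a mitochondrial enzyme of serine metabolism (0.13 and -0.17). Those of Cox8c were Btbd7 (0.51 and 0.00) and Prima1, and those of Cox7b2 were Gnpda2 and Commd8 (0.35 and 0.19). None of these nearest tested genes of Ndufa4l2, Cox8c or Cox7b2 changed 2-fold. The tested genes 1 step further out from Ndufa4l2 did. Inhbc, which encodes an inhibin subunit, fell by 1.59 in dKO and was at -0.98 in dCD (adjusted p = 5.51e-07 and 3.98e-05, limma). Nxph4 rose by 0.61 in dKO and fell by 1.16 in dCD (adjusted p = 0.000159 and 2.59e-06, limma). Inhbc averaged 2.30 TPM in WT, 0.10 in dKO and 0.68 in dCD. In that position none of the neighbours of the other 4 genes changed 2-fold. Reads of overlapping genes cannot be told apart where the strand setting is not given.

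Gene length moved with the results. The 90 genes are short, with a median length of 1490 bases against 3322 for all tested genes. The median log2 fold change of all genes in dKO against WT was 0.02 for genes under 1000 bases and 0.13 for those of 4000 bases or more. Among the 90 genes it was -0.01 for the 28 genes under 1000 bases and between 0.15 and 0.17 in the 3 longer classes. With the length trend of each library removed, 42 of the 90 were higher and 22 lower in dKO, and 33 higher and 25 lower in dKO against dCD. Cox7a1, Cox6b2, Ndufa4l2 and Cox5a kept their calls and signs there in all 3 comparisons.

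Genes outside the 90 that build or feed the chain were read from short lists, whose counts stand beside 43.4% higher and 28.4% lower among all tested genes in dKO and 28.9% and 29.5% in dCD. Of 7 complex I assembly genes with other names, 4 were higher and 2 lower in dKO and 1 higher and 6 lower in dCD (limma), with Tmem186 at 0.37 in dKO and Ecsit at -0.37 in dCD. Complex II assembly had 3 of 4 higher in dKO and 2 in dCD, led by Sdhaf3 (0.36 and 0.47) and Sdhaf4 (0.40 and 0.34). Complex III assembly had 3 of 6 higher in dKO, with 1 higher and 2 lower in dCD. Uqcc2, an assembly factor for cytochrome b, stood out at 112 ± 6.40 TPM in WT and 217 ± 8.33 in dKO (0.94, adjusted p = 1.4e-08, limma), and Ttc19 fell by 0.32 in dCD. Complex IV assembly had 8 higher and 5 lower of 16 tested in dKO and 3 higher and 4 lower in dCD. Its leaders were Surf1, a heme insertion factor, at 0.56 in dKO and -0.38 in dCD, and Taco1, at 0.44 in dKO. All 3 complex V assembly genes were higher in dKO, with Tmem70 at 0.91 in dKO and 0.58 in dCD and Atpaf2 at 0.36 in dKO. These lists were read on the deposited scale only. Their calls under median-ratio scaling were not looked up, so small rises in dKO are uncertain.

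The regulators known for respiratory chain genes moved little, and the counts of the lists that follow stand beside the same shares of all tested genes (43.4% higher and 28.4% lower in dKO, 28.9% and 29.5% in dCD). Of the regulators, 4 of 7 tested were higher in dKO and 2 in dCD, with none lower (limma). The largest values were Gabpb1 at 0.21 in dKO and Yy1 at 0.19 in dCD, and Nrf1, named for its motif below, was at 0.18 in dKO and 0.11 in dCD. Of 8 genes of mitochondrial transcription and RNA, 3 were higher and 2 lower in dKO and 1 higher and 3 lower in dCD, with Tefm, an elongation factor, at -0.57 and -0.43 and Tfb1m at -0.22 and -0.32. Of 12 coenzyme Q synthesis genes, 5 were higher and 4 lower in dKO and 2 higher and 7 lower in dCD, with Adck3 at -0.72 and -0.81 and Coq2 at 0.66 in dKO. Of 13 citric acid cycle genes, 8 were higher and 3 lower in dKO and 5 higher and 2 lower in dCD, with Dld at 0.52 and 0.38 and Dlst at 0.37 in dKO. Of 8 genes listed for pyruvate dehydrogenase, which include its kinases, 2 were higher and 3 lower in dKO and 1 higher and 4 lower in dCD. Its largest changes were in 2 kinases, which inhibit the enzyme: Pdk4 at -0.47 in dCD and Pdk3 at 0.39 and 0.40. Of 6 tested carriers and uncoupling genes, 3 were higher and 2 lower in dKO and 4 higher and 1 lower in dCD. Slc25a31, an ADP and ATP carrier best known from testis, rose by 1.70 and 1.09, and Ucp2 had log2 fold changes of -0.73 and -0.67. Cytochrome c, encoded by Cycs, rose in both lines (0.42 and 0.40). Cyc1, the cytochrome c1 subunit of complex III, fell by 0.08 in dCD. Its symbol lies outside the rule, so the complex III counts and sums leave it out. The lists in this paragraph were also read on the deposited scale only. Small rises in dKO, such as those of Gabpb1 and Nrf1, were not looked up under median-ratio scaling.

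Promoters of the 90 genes were read for motifs of factors long tied to respiratory genes. The motif of NRF1, searched as GCGCATGCG on both strands, was found in 10 of the 72 matched windows, which run from 250 bases before to 50 after the RefSeq start. That is 13.9%, against 3.68% of 10540 tested genes and 1.81% of all 27025 windows in the table. The 10 sites are shown 5′ to 3′ on the gene's strand with up to 10 bases on each side (GRCm38.p6), and the capitals mark the match, or overlapping matches of both strands.
Atp5g2 (chr15:102671070-102671099, minus strand): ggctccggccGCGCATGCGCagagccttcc
Atp5k (chr5:108434430-108434459, minus strand): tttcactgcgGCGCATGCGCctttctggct
Atp5l (chr9:44920965-44920992, minus strand): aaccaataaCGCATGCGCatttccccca
Cox6a1 (chr5:115349101-115349130, minus strand): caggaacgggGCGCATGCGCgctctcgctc
Ndufa11 (chr17:56717692-56717721, plus strand): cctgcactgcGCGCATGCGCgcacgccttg
Ndufa8 (chr2:36049329-36049357, minus strand): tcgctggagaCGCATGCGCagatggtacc
Ndufaf4 (chr4:24897960-24897989, plus strand): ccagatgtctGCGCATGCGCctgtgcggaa
Ndufaf5 (chr2:140170652-140170681, plus strand): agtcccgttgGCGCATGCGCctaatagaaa
Uqcr11 (chr10:80406808-80406836, minus strand): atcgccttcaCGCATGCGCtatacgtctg
Uqcrc1 (chr9:108936668-108936697, plus strand): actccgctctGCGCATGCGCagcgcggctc
In dKO against WT, Atp5k, Atp5l and Ndufaf4 of these 10 genes were higher, Ndufa11, Ndufaf5 and Uqcrc1 lower, and Atp5g2, Cox6a1, Ndufa8 and Uqcr11 did not pass (limma). Under the median-ratio scaling these last 4 were called lower as well, with log2 fold changes of -0.11, -0.14, -0.07 and -0.16. That made 3 higher and 7 lower. For the 90 genes the same scaling gave 30 higher and 32 lower. Across the tested table it gave 34.8% and 34.9%, against 43.4% and 28.4% on the deposited scale. In dCD against WT, Atp5k and Atp5l were higher, Cox6a1, Ndufaf5 and Uqcrc1 lower, and the rest did not pass (limma). Whether the motif goes with either direction was not tested.

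Other motifs were searched on both strands. Of the 10 windows with the NRF1 motif, 1 also held the ETS motif below, that of Uqcr11, and 0 held the YY1 motif. CCGGAAGT, a core bound by GABP and other ETS factors, was in 6.94% of the 72 windows and 8.05% of those of tested genes. AAGATGGCG, bound by YY1, was in 8.33% and 3.14%, and 5 of its 6 members were complex I genes, which supply 39 of the 72 windows. CCAAT was in 44.4% and 39.2%, and TATAAA in 8.33% and 6.90%. These matches are descriptions of the letters in the window, and the 18 genes without a window were not searched.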

How the data were processed

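Titles put the 9 libraries of polyadenylated RNA into groups. Samples of the study's other assays were not used here. The levels are TPM as the authors deposited them, with a length for each gene. HISAT2, featureCounts and DESeq2 are named, without roles or versions, per the submitters' processing notes, as is build mm9. Not given in the sources used here: the annotation, the strand setting and how multi-mapping reads were handled. The product of TPM and length fell on whole steps, 1 step size a library, for 100% of values (within 0.01), which gave the read depths. Pairs of libraries of 1 line differed by 1.62 to 4.57 chi-square per degree of freedom, so none was a copy.

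Genes at 1 TPM or more in 3 or more of the 9 libraries were fitted with limma 3.58.1 (R 4.3.3; lmFit, eBayes with a trend) on log2(TPM + 1), all libraries in 1 fit, two-sided, with Benjamini-Hochberg adjustment over all tested genes and a threshold of 0.05. This scale understates changes of low genes. The script was tested on simulated data. Alternatives were a pseudocount of 0.1, other filters, median-ratio scaling, removal of the length trend, voom on recovered reads, eBayes without a trend, a replicate block, the 6 libraries of each pair of lines, and leaving out each library.

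The members, gene lists and roles were chosen with earlier results of these data known. Genes named are those changed 2-fold, the extremes of each complex against WT, the highest of each complex, the isoform pairs, the c-ring, the core, Sdh and F1 groups, and the 2 genes of each other list with the largest change; a few others are given as the rest of a small count, and Ndufb2, Ndufa13, Ndufs5, Cox5a, Cox5b, Cox7a2l and Atp5k were added after their values were seen. Promoter windows are RefSeq's (GRCm38.p6), matched by symbol for 72 of the 90 genes. The values of 1 gene enter the counts and sums but are not reported here.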

Additional observations from a re-analysis of the deposited data

How the results depend on the processing

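Calls depended most on how libraries were scaled. Under median-ratio scaling the 50 higher and 17 lower genes of dKO against WT became 30 and 32, and the 44 and 13 of dKO against dCD became 28 and 34. With the length trend removed, the 13 lower genes of dKO against dCD became 25. The cause was not tested. Leaving out 1 library at a time gave 48 to 51 higher and 14 to 17 lower genes for dKO against WT, 23 to 29 and 14 to 17 for dCD against WT, 41 to 46 and 12 to 13 for dKO against dCD, and 71 to 76 that differed among the lines. The other alternatives kept these counts within 1.5 times. Of the 67 calls in dKO against WT, 43 were kept under every alternative, as were 35 of 47 in dCD against WT and 39 of 57 in dKO against dCD. Signs turned for these genes where at least 1 of the fits called them, as log2 fold changes. In dKO against WT under median-ratio scaling these were Cox6c (-0.071), Ndufa10 (-0.035), Ndufa8 (-0.068), Ndufb4 (-0.089), Ndufs5 (-0.10) and Sdhc (-0.028). In dKO against dCD under that scaling they were Cox6c (-0.069), Ndufa10 (-0.070), Ndufa9 (-0.067), Ndufb10 (-0.072), Ndufb4 (-0.092), Uqcrc2 (-0.015) and Uqcrh (-0.0033). With the length trend removed they were Ndufa10 (-0.020), Ndufb5 (-0.020) and Sdhc (-0.013) in dKO against WT and Ndufab1 (-0.0062) in dKO against dCD.

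With the replicate number as a block, 53 genes were higher and 17 lower in dKO against WT, 28 and 16 in dCD against WT, and 45 and 13 in dKO against dCD. The deviations of same-numbered libraries correlated between -0.05 and 0.04, and those of differently numbered ones between -0.07 and 0.07. No shared deviation by number was seen, which cannot show whether same-numbered libraries were prepared together. With only the subunits counted, an alternative chosen after seeing the data, the complex I sum in dKO was 109.5% of WT. Depth limits Cox8c, with 1 to 34 reads per library, Cox7b2, with 6 to 24, and Cox4i2, with 9 to 85.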
